A study of Mus musculus with 3 samples.

Results

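Kupffer cells are the resident macrophages of the liver, and 9 genes that mark them are described here: Clec4f, Vsig4, Cd5l, Timd4, Marco, Cd209f, Id3, Nr1h3 and Folr2. They were chosen by name, as genes known for Kupffer cell identity, from the 19091 genes of 3 single-cell libraries of mouse liver. Control livers came from adult C57BL/6 mice that underwent sham surgery and were killed after 1 day. In the other mice of the same strain, a liver lobe was injured by irreversible electroporation (IRE), an electric pulse treatment that kills cells, with 8 pulses of 50 ms at 75 V and 1 s between pulses, and the livers were taken 1 day or 7 days post injury (day 1 and day 7). The injured area, or the same uninjured area in control livers, was punched out at 4 mm, digested with enzymes and run on Drop-seq, which counts mRNA molecules per cell through unique molecular identifiers (UMIs) at the 3′ end. Each library pooled 3 livers, so that every group is 1 sample, no difference has a replicate check and no test was possible. The 95% intervals given are exact and cover counting error only.

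Cells were barcodes with at least 200 detected genes, 25263 in all. Those with a UMI of at least 2 of C1qa, C1qb and C1qc, the subunits of complement C1q made by tissue macrophages, were called C1q cells. They numbered 2871 of 10386 cells in control (27.6%, 26.8 to 28.5), 2560 of 9253 cells on day 1 (27.7%, 26.8 to 28.6) and 472 of 5624 cells on day 7 (8.39%, 7.68 to 9.15). Barcodes under 200 genes, 5318 in control, 8908 on day 1 and 6842 on day 7, were read as free RNA. Their median depth was 295, 267 and 215 UMIs, and cells of low content among them were not told apart. Mitochondrial transcripts made up 52.7%, 38.7% and 8.41% of the UMIs of these barcodes. In C1q cells they made up 14.2%, 16.1% and 2.91%. Their part in the results was not tested, and without mitochondrial UMIs the sum of the 9 genes in C1q cells came to 1.38 times control on day 1 and 0.667 times on day 7. Between 99 and 204 cells of a library (0.953% to 3.20%) shared their barcode sequence with a cell of another library, and without them that sum came to 1.44 and 0.742 times control, against 1.35 and 0.755 with all C1q cells.

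Kupffer cells settle in the liver sinusoids before birth and keep themselves by local division, and blood monocytes can refill the niche when it is emptied. Their identity is known to depend on signals from endothelial and stellate cells, Notch ligands and bone morphogenetic proteins among them, and on the liver X receptor encoded by Nr1h3. In the blood stream they take up bacteria, dead cells, iron and lipids. Of the genes described, 6 encode surface receptors: Clec4f, a lectin used as the most specific mouse Kupffer cell marker, Vsig4, the receptor for complement C3b, Timd4, a receptor for phosphatidylserine on dying cells that marks long-lived resident macrophages, Marco, a scavenger receptor for bacteria and particles, Cd209f, a lectin of the DC-SIGN family, and Folr2, a folate receptor. Cd5l is a secreted protein that resident macrophages release. Id3 and Nr1h3 act in the nucleus, as an inhibitor of helix-loop-helix factors and as an oxysterol receptor.

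The promoters of 3 of these genes are shown because Clec4f and Cd5l had similar levels across cell groups while Clec4f and Marco differed in opposite directions between libraries. Each run is the 250 bases before the start site in RefSeq, build GRCm38.p6, with the matches of 4 motifs in capitals: the RBPJ motif TGGGAA of the Notch pathway, the nuclear receptor motif AGGTCA, the PU.1 motif GAGGAAGT and the MAF motif TGCTGA, on either strand. Clec4f lies on the minus strand at chr6:83656117-83656366, Cd5l on the plus strand at chr3:87357631-87357880 and Marco on the minus strand at chr1:120505025-120505274.
Clec4f: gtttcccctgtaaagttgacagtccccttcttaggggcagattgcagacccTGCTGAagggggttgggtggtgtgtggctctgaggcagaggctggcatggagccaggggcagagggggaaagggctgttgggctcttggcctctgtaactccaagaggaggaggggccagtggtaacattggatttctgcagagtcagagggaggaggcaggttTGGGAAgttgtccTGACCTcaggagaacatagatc
Cd5l: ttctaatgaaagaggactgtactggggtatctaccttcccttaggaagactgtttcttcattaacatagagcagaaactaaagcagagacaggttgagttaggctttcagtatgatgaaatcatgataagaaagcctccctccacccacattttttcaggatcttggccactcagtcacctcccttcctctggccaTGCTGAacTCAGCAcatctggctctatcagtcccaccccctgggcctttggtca
Marco: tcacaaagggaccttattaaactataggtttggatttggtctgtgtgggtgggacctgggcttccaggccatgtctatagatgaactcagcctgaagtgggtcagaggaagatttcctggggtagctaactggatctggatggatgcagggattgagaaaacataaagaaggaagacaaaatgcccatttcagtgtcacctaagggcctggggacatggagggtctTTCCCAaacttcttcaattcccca
Clec4f held 1 match each of the RBPJ, nuclear receptor and MAF motifs, Cd5l held 2 matches of the MAF motif in facing orientation, and Marco held 1 match of the RBPJ motif on the opposite strand. Among 32851 RefSeq promoter entries, the RBPJ motif was present in 21.6%, the nuclear receptor motif in 14.0%, the MAF motif in 16.1% and the PU.1 motif in 2.44%. The matches are a description of the letters only. The 9 genes had 11 promoter entries, and the PU.1 motif was in none of them. No match was found for Vsig4, Cd209f or Id3.

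All 9 genes were present in control and on day 1, and Cd209f had no UMI on day 7. Levels are given as UMIs per 1000000 UMIs of the cells named (CPM). In C1q cells, the receptor Clec4f was at 2121 CPM in control (2069 to 2174), 3501 on day 1 (3425 to 3579) and 1002 on day 7 (903 to 1108). Its level was thus highest on day 1 and lowest on day 7, at 1.65 times (1.60 to 1.71) and 0.472 times (0.425 to 0.524) that of control. Marco took the opposite course, with 1246 CPM in control, 724 on day 1 and 1568 on day 7. Against control this was 0.581 times (0.548 to 0.616) on day 1 and 1.26 times (1.15 to 1.37) on day 7. The second of these turned to 0.876 without the 5% of cells with the most UMIs and to 0.735 when macrophages were picked by at least 2 of Csf1r, Adgre1 (listed as Emr1) and Cd68 in place of C1q.

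Vsig4, the complement receptor, was at 506 CPM in C1q cells in control, 1138 on day 1 and 598 on day 7, which is 2.25 times control (2.11 to 2.40) and then 1.18 times (1.02 to 1.36). Its level was higher on day 1 than in either other library, while the small excess at 7 days turned to 0.694 with the Csf1r, Adgre1 and Cd68 gate. Folr2 was at 389.8, 745 and 252 CPM in control, on day 1 and on day 7, and followed the order of Clec4f. Cd209f, the rarest, had 25 UMIs in control C1q cells, 119 on day 1 and 0 on day 7. On day 1 it was at 6.27 times the control level (4.05 to 10.1). This came to 2.00 times after subtracting the level in neutrophil-gated cells, the lowest of its alternatives, and to 9.27 times in cells with all 3 C1q genes. The count of 0 on day 7 allows up to 0.964 times the control level, so that a lower level than in control was barely detectable at this depth, whereas against day 1 it allows at most 0.154 times.

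Timd4, the receptor for dying cells, was at 174 CPM in control, 203 on day 1 and 85.0 on day 7, the last from 32 UMIs. Its day 7 level was 0.488 times control (0.330 to 0.697), but 0.192 times with the Csf1r, Adgre1 and Cd68 gate and 0.607 times in cells with all 3 C1q genes. Without cells of another gate a bound of 0.978 was all that could be given, and the later split by Slc40a1, Fcna or Cd163 gave 0.882 with and 0.119 without these genes, the last from 1 UMI. Its 1.17 times on day 1 (1.03 to 1.32) turned to 0.984 once C1q cells that carried markers of another cell type were left out. The secreted Cd5l differed little between control and day 1, at 1926 and 2123 CPM, and was at 1276 on day 7, 0.662 times control (0.602 to 0.727).

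The nuclear factors behaved differently from each other. Id3 was at 307 CPM in C1q cells in control, 611 on day 1 and 244 on day 7, or 1.99 times (1.83 to 2.16) and 0.795 times (0.635 to 0.986) control. Nr1h3 was the steadiest of the 9 genes, at 227, 219 and 186 CPM, and both intervals of its ratio to control held 1 (0.859 to 1.08 on day 1 and 0.632 to 1.05 on day 7), although under other choices of cells its ratio ran from 0.704 to 1.45 on day 1 and from 0.496 to 1.40 on day 7.

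**Figure D1:**
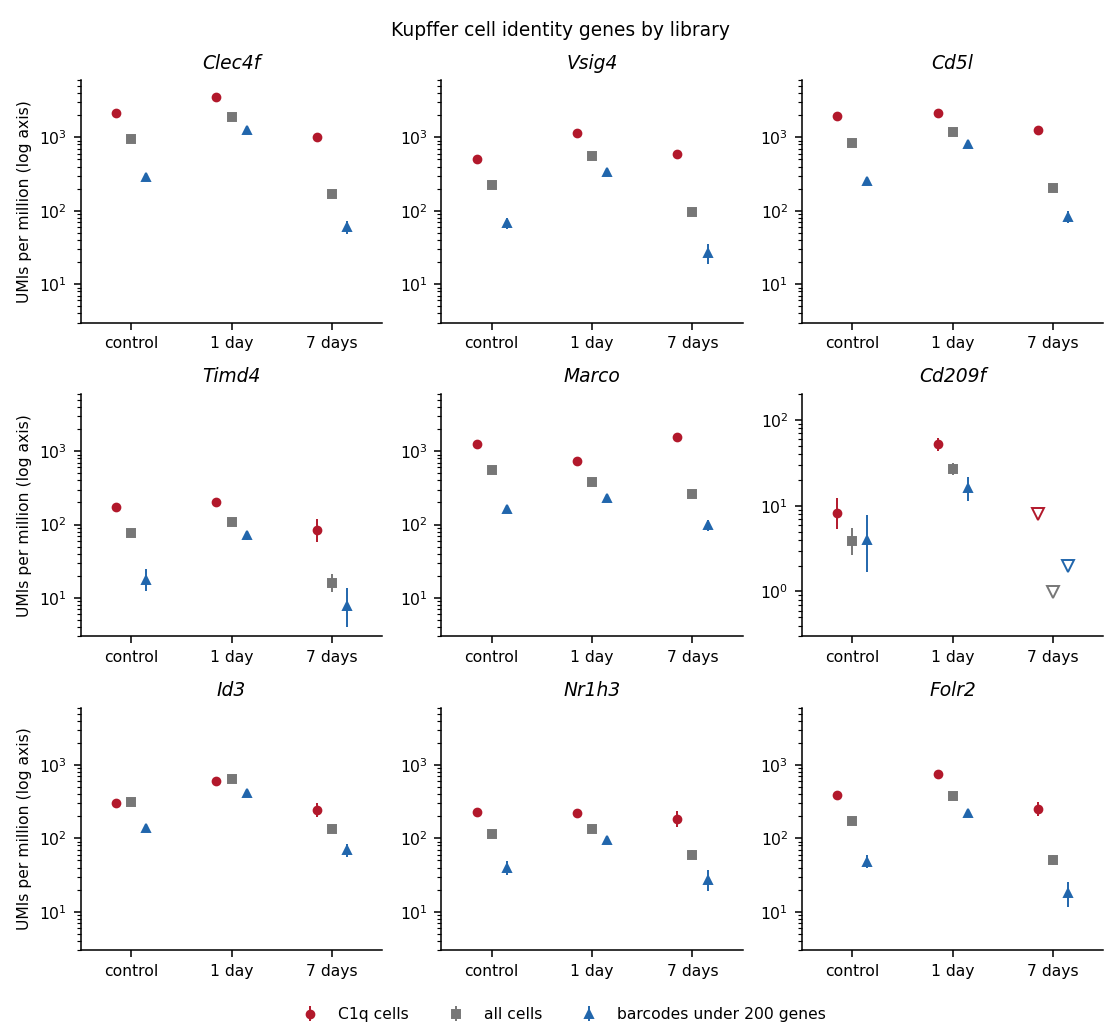
CPM of each of the 9 genes (log axis; the panel of Cd209f has its own range) in C1q cells, in all cells of at least 200 genes and in barcodes under 200 genes, by library; bars are 95% Poisson intervals and open triangles mark the limit of 3 UMIs where none was found. Marco is the only gene whose C1q cell level is lowest on day 1 and highest on day 7, and wherever a UMI was found, barcodes under 200 genes lie below C1q cells.

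The sum of the 9 genes in C1q cells was 6906 CPM in control, 9317 on day 1 and 5212 on day 7, that is 1.35 times (1.32 to 1.38) and 0.755 times (0.720 to 0.790) control. The 7-day value depended on how the cells were picked: it was 1.04 times control (0.985 to 1.10) in cells with all 3 C1q genes and 0.447 times (0.418 to 0.476) with the Csf1r, Adgre1 and Cd68 gate. On day 1, Vsig4 and Cd209f were at least 2-fold higher than in control C1q cells, 2 of 9 genes, against 15.1% of the 10887 genes with at least 20 UMIs. None of the 9 was 2-fold lower, against 5.68% of those genes. On day 7, Clec4f and Timd4 were at least 2-fold lower than in control, 2 of 9, against 19.3% of 9321 genes, and none was 2-fold higher, against 8.46%. The 19.3% includes genes with no UMI on day 7, and Cd209f would count by its 0 UMIs, but its bound of 0.964 does not show a 2-fold difference. At this limit of 20 UMIs, the share past 2-fold among the 9 genes was near that of all genes. With at least 100 UMIs, 2 of 9 were higher on day 1 against 10.5% of 6215 genes. On day 7, 2 of 8 were lower against 9.56% of 4435 genes. At 20 UMIs the median log2 ratio of the 9 genes to control was 0.723 on day 1 and -0.594 on day 7. For all genes tested it was 0.0464 and -0.0820. Between the injured libraries, Clec4f, Timd4, Cd209f, Id3 and Folr2 were at least 2-fold lower on day 7 than on day 1 (5 of 9, against 26.5% of 9482 genes), and Marco was 2-fold higher (1 of 9, against 10.9%).

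The order of the genes in C1q cells, by UMIs without a correction for length since Drop-seq counts 3′ ends, differed between libraries. In control it ran Clec4f (30.7% of the UMIs of the 9 genes), Cd5l (27.9%), Marco (18.0%), Vsig4 (7.32%), Folr2 (5.65%), Id3 (4.45%), Nr1h3 (3.28%), Timd4 (2.53%) and Cd209f (0.120%), and the interval of the ratio of each neighbouring pair excluded 1. On day 1, Clec4f (37.6%), Cd5l (22.8%) and Vsig4 (12.2%) led, and Folr2 (7.99%) and Marco (7.77%) could not be told apart, at a ratio of 1.03 (0.961 to 1.10). On day 7, Marco led with 30.1%, ahead of Cd5l (24.5%) and Clec4f (19.2%). Marco was thus the third gene in control, among the fourth and the fifth on day 1 and the first on day 7.

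Over all cells, the 9 genes summed to 3233 CPM in control, 5338 on day 1 and 996 on day 7, or 1.65 times (1.62 to 1.68) and 0.308 times (0.297 to 0.320) control, both farther from 1 than in C1q cells. Marco on day 1 was an exception, at 0.687 times control over all cells against 0.581 times in C1q cells. Clec4f, Vsig4, Cd209f, Id3 and Folr2 were at least 2-fold higher than control on day 1 (5 of 9, against 13.6% of 12988 genes), and none was 2-fold lower (against 7.14%). On day 7 all but Nr1h3 were at least 2-fold lower (8 of 9, against 26.3% of 12074 genes) and none was 2-fold higher (against 8.79%). Marco was at 546, 375 and 263 CPM over all cells in control, on day 1 and on day 7, so that over all cells it was lowest on day 7, when it was highest in C1q cells. Clec4f was at 946, 1920.0 and 171 CPM, and its difference between the injured libraries was the widest of the more abundant genes. Cd5l was at 843, 1185 and 204 CPM, Vsig4 at 223, 564 and 95.5, and Folr2 at 171, 383 and 51.0. Timd4 was at 75.9 CPM in control, with 1.42 times that level on day 1 and 0.211 times on day 7, Id3 was at 309, 642 and 136, and Nr1h3 at 116, 134 and 60.2, so that each of the 9 genes but Marco was highest on day 1 over all cells. Cd209f, at 3.87, 26.7 and 0, was the rarest there too. Fewer Kupffer cells and less RNA per cell cannot be told apart in such sums.

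The 9 genes were also present outside macrophages, most of all on day 1. In barcodes under 200 genes, Clec4f was at 287 CPM in control, 1277 on day 1 and 59.8 on day 7. The 9 genes together were 6.77 times (6.47 to 7.09) higher in C1q cells than in these barcodes in control, 2.68 times (2.61 to 2.74) on day 1 and 13.5 times (12.3 to 14.8) on day 7. The UMI totals behind CPM include mitochondrial UMIs. In control, on day 1 and on day 7 these made up 52.7%, 38.7% and 8.41% in the barcodes under 200 genes. They made up 14.2%, 16.1% and 2.91% in C1q cells, and their part in ratios between the 2 populations was not tested. With the level in neutrophil-gated cells of the same library subtracted, an alternative chosen after seeing the data, the sum on day 1 came to 1.13 times control instead of 1.35. The day 1 level of the neutrophil gate rests on 142 UMIs of the 9 genes in 97 cells, and the 1.13 has no interval. Cells were put in this gate by 2 or more of S100a8, S100a9, Retnlg and Csf3r, and such cells should not express Clec4f. In the same barcodes under 200 genes Marco was at 163, 229 and 97.3 CPM and Cd5l at 255, 818 and 82.2. Clec4f and Cd5l thus differed more between libraries in these barcodes than Marco did. Id3 was 2.24, 1.45 and 3.58 times higher in C1q cells than in these barcodes, against 7.38, 2.74 and 16.7 times for Clec4f. For Cd209f in control the ratio was 2.09, with an interval that held 1 (0.913 to 5.35).

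The relation of Clec4f to Marco differed between the libraries. In C1q cells there were 1.70 Clec4f UMIs for each Marco UMI in control (1.63 to 1.77), 4.83 on day 1 (4.59 to 5.10) and 0.639 on day 7 (0.560 to 0.728). The intervals of the 3 libraries did not overlap. In barcodes under 200 genes the same ratio was 1.76 in control, 5.57 on day 1 and 0.615 on day 7, and in neutrophil-gated cells 1.78, 6.00 and 0.647, the 1-day value from 8 Marco UMIs. In T, NK and B-gated cells it was 2.33 in control (1.42 to 3.94) and 5.05 on day 1 (3.10 to 8.62), with intervals that overlapped. Thus the barcodes under 200 genes of each library held both transcripts in nearly the proportion found in its C1q cells. Over 11 other choices of cells the ratio ran from 1.55 to 1.78 in control, from 4.57 to 6.30 on day 1 and from 0.580 to 0.741 on day 7, so that the order of the libraries was the same under each of them.

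**Figure D2:**
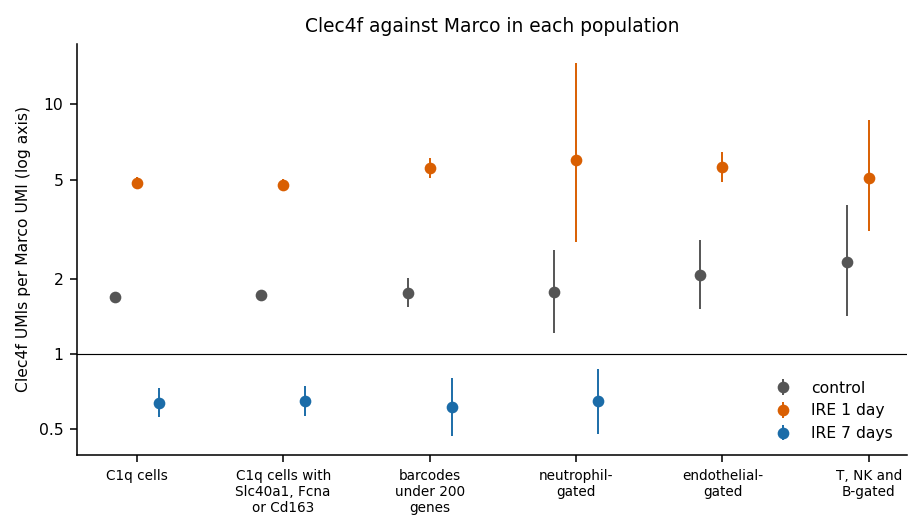
Clec4f UMIs for each Marco UMI (log axis) in C1q cells, those of them with Slc40a1, Fcna or Cd163, barcodes under 200 genes and cells of 3 other marker gates, by library, with 95% intervals; endothelial-gated and T, NK and B-gated cells on day 7 had too few UMIs. In each population the value of day 1 lies above control, and where measured that of day 7 lies below 1.

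Id3 was the exception to a macrophage pattern. In control it was at 754 CPM (689 to 824) in endothelial-gated cells, picked by Clec4g, Kdr, Ptprb and Egfl7, and at 552 (476 to 637) in mesenchymal-gated cells with collagen genes, both above the 307 of C1q cells. In C1q cells it was 0.408 times (0.365 to 0.456) the endothelial level in control and 0.675 times (0.627 to 0.727) on day 1. The 7 other genes with a UMI in the endothelial gate of control were higher in C1q cells, from 6.63 times for Nr1h3 to 28.0 times for Timd4, and Cd209f had no UMI in that gate. On day 1, when Id3 in C1q cells was highest, 31.5% of C1q cells also passed the endothelial gate, against 5.50% in control and 1.06% on day 7. All 4 endothelial markers were detected in C1q cells of each library, and their sum was 389.5 CPM in control, 2023 on day 1 and 119.6 on day 7. Their part in the level of Id3 was not tested.

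To compare cells of unequal depth, each C1q cell was thinned to 300 UMIs, which left 2841, 2513 and 452 cells. Clec4f was then found in 35.3% of control cells (33.5 to 37.1), 60.6% on day 1 (58.7 to 62.6) and 18.6% on day 7 (15.1 to 22.5). The unthinned shares were 49.8%, 79.1% and 28.8%. For Marco the thinned shares were 18.2%, 16.8% and 19.5%, with intervals that overlapped. When C1q cells were thinned to 500 UMIs, the Marco shares were 23.9%, 24.4% and 20.9%. Their order thus differed, and the intervals again overlapped. Neutrophil-gated cells, thinned to 300 UMIs, held Clec4f in 5.75%, 19.1% and 1.59%, and Marco in 3.90%, 4.26% and 1.98%. Their unthinned median depths were 607, 496 and 421 UMIs, against 843, 636.5 and 670.5 in C1q cells.

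Marco was found on day 7 in 54.8% (43.5 to 65.7) of the 84 thinned C1q cells with Clec4f but in 11.4% (8.35 to 15.1) of those without. In control these shares were 33.8% and 9.74%, and the day 1 shares were 19.8% and 12.2%. On day 7 Marco was thus found in a larger share of the Clec4f cells than in the other libraries, with intervals that did not overlap. Not all pairs behaved so. In control Id3 was found in 7.99% of cells with Folr2 and 8.39% of those without, and on day 7 Nr1h3 in 4.76% of cells with Clec4f and 4.35% of those without. Timd4 was found in 4.76% of the Clec4f cells on day 7 (1.31 to 11.7) and in 9.17% in control (7.46 to 11.1), and these intervals overlapped.

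The number of the 9 genes found per cell split the C1q cells. None was found in 43.3% of the thinned C1q cells in control (41.5 to 45.2), 16.4% on day 1 (14.9 to 17.9) and 62.8% on day 7 (58.2 to 67.3). At least 2 were found in 39.6%, 61.1% and 26.1%. In neutrophil-gated cells at least 2 were found in 4.11%, 16.0% and 1.28%. These cells should lack Clec4f, and their shares served as a background of the measure. Id3, also found in endothelial-gated cells, was in 3.90%, 13.8% and 2.51% of neutrophil-gated cells, against 5.75%, 19.1% and 1.59% for Clec4f. Whether Id3 there is background was not tested.

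**Figure D3:**
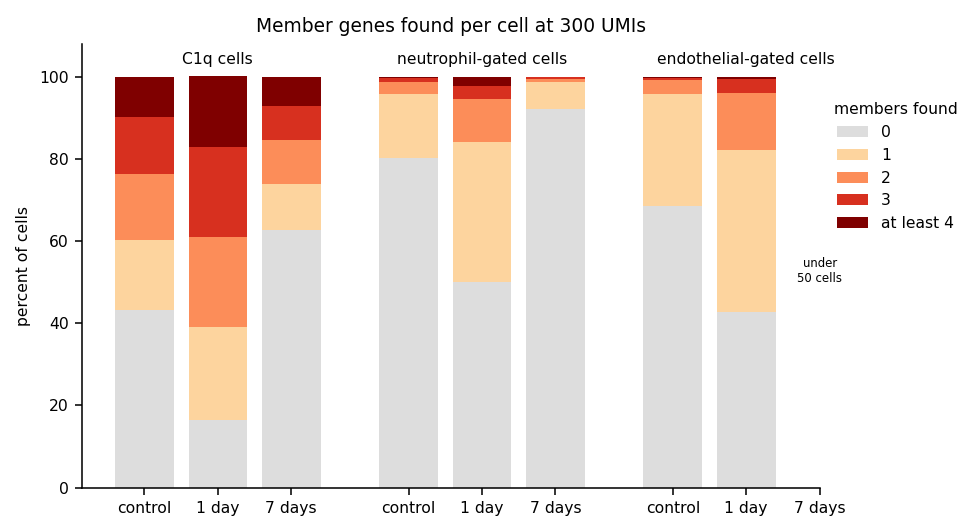
Percent of C1q, neutrophil-gated and endothelial-gated cells with 0, 1, 2, 3 or at least 4 of the 9 genes (members) found after thinning each cell to 300 UMIs, by library; the endothelial gate on day 7 held under 50 cells. Cells with none of the genes make up 43.3% of C1q cells in control, 16.4% on day 1 and 62.8% on day 7.

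C1q cells with and without the 9 genes also differed in genes that were not used to split them. In control, the 8 genes of lipid-associated macrophages (Gpnmb, Trem2, Spp1, Lpl, Lgals3, Fabp5, Cd63 and Cd9) summed to 10853 CPM in C1q cells with none of the 9 genes and to 2159 in those with at least 2. On day 7 the same sums were 15846 and 5618, and on day 1 they were 2695 and 1397. The 10 monocyte genes, Ly6c2 and Ccr2 among them, summed to 7127 and 1493 on day 7, but the gap was smaller in control, at 1901 and 1370.3, and on day 1, at 717 and 629.8. In the libraries as a whole, 7 of the 8 lipid-associated genes were at least 2-fold lower in C1q cells on day 1 than in control, with Lgals3 at 344 against 1798 CPM and Spp1, the exception, at 827 against 895. Of the 10 monocyte genes, 7 were at least 2-fold lower on day 1 and 9 at least 2-fold higher on day 7. Plac8 was at 592, 282 and 1225 CPM in control, on day 1 and on day 7, and S100a4 at 255, 41.0 and 686.

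By contrast, 18 other Kupffer cell genes, Fcna, a ficolin, and Slc40a1, the iron exporter ferroportin, among them, had similar sums in cells with at least 2 of the 9 genes. They summed there to 8576 CPM in control, 8605 on day 1 and 8049.8 on day 7, against 1272, 1804 and 1654 in C1q cells with none. Single genes of the list were not all level. Slc40a1 was at 1501, 1287 and 1075 CPM in the cells with at least 2. On day 1, C1q cells with none of the genes had a C1q sum of 2301 CPM, against 9844 in those with at least 2, and a sum of 6 hepatocyte genes of 62491 against 9833. In control the C1q sums were 5486 and 9211. The median depth of cells with none and with at least 2 of the genes was 862 and 845 UMIs in control, 665 and 654 on day 1, and 701 and 693 on day 7.

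**Figure D4:**
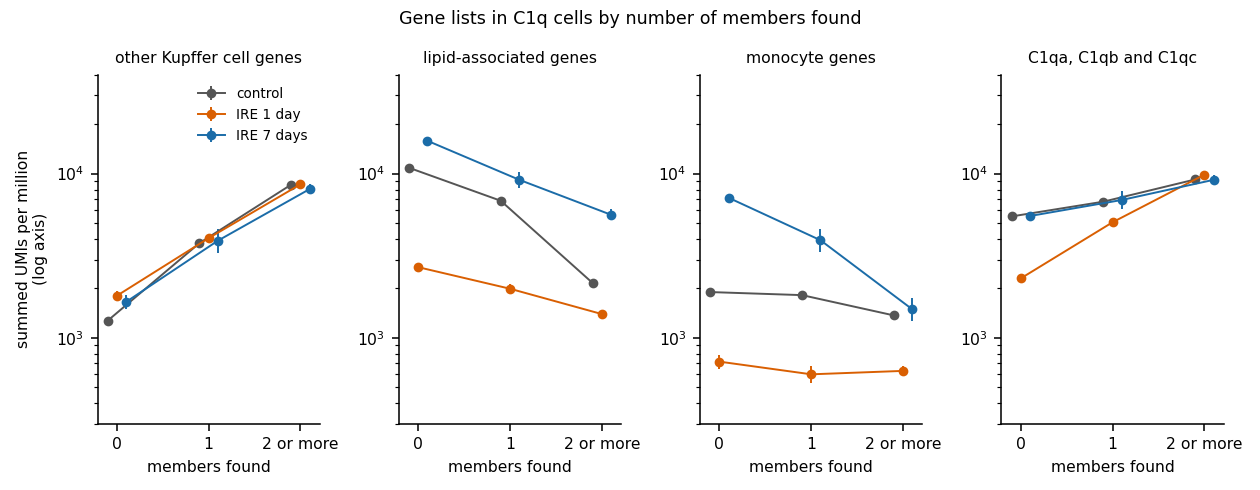
Summed CPM (log axis) of other Kupffer cell genes, lipid-associated genes, monocyte genes and the 3 C1q genes in C1q cells by how many of the 9 genes (members) were found in the cell, with 95% Poisson intervals. Other Kupffer cell genes lie between 8049.8 and 8605 in cells with at least 2 of the genes in all libraries, while lipid-associated genes are at 10853 and 2159 in control, and at 15846 and 5618 on day 7, in cells with none and with at least 2.

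A further split used genes outside the 9 and was chosen after seeing the data. C1q cells with a UMI of Slc40a1, Fcna or the haemoglobin receptor Cd163 made up 55.0% of C1q cells in control (53.2 to 56.8), 77.6% on day 1 (76.0 to 79.2) and 30.9% on day 7 (26.8 to 35.3), which is 1579, 1987 and 146 cells. Among neutrophil-gated cells the shares were 11.6%, 32.0% and 4.25%. After thinning to 300 UMIs the shares of C1q cells were 35.0%, 57.5% and 18.8%, in the same order. Within C1q cells with any of these 3 genes, the 9 genes summed to 10315 CPM in control, 10554 on day 1 and 12540.2 on day 7, or 1.02 times (1.00 to 1.04) and 1.22 times (1.16 to 1.28) control. In C1q cells with none of the 3 genes the sums were 1650.3, 3852 and 1223 CPM, or 2.33 times (2.18 to 2.49) and 0.741 times (0.654 to 0.837) control. Fcna, used for the split, was itself at 2.10 and 0.611 times control in C1q cells.

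Single genes still differed in these cells. Marco was at 1881, 836 and 3785 CPM in control, on day 1 and on day 7, or 0.445 times (0.419 to 0.472) and 2.01 times (1.83 to 2.21) control. Clec4f was at 3227, 3967 and 2458, or 1.23 times (1.19 to 1.27) and 0.762 times (0.679 to 0.852) control. Vsig4 was higher than control at both times, at 1.71 times (1.60 to 1.83) and 1.90 times (1.63 to 2.21). Cd5l, at 1.10 times control (1.06 to 1.15) in all C1q cells on day 1, was at 0.834 times here (0.801 to 0.868), and Nr1h3 at 0.755 times (0.666 to 0.855). On day 7 the intervals of Timd4, Id3, Nr1h3 and Folr2 against control all held 1. The 7-day values rest on 146 cells, and 88.6% of all C1q cells on day 7 also passed the neutrophil gate, against 19.6% in control and 2.38% on day 1. Any other gate was passed by 440 of the 472 C1q cells on day 7 (93.2%), against 42.0% in control and 35.6% on day 1. The 4 neutrophil markers were all detected in C1q cells and summed to 2241 CPM in control, 379 on day 1 and 15278 on day 7. They summed to 9377, 727 and 91857 in barcodes under 200 genes, and to 41273, 20553 and 69174 in neutrophil-gated cells. On day 7 these markers were thus higher in barcodes under 200 genes than in neutrophil-gated cells. Their part in the levels of the 9 genes was not tested.

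**Figure D5:**
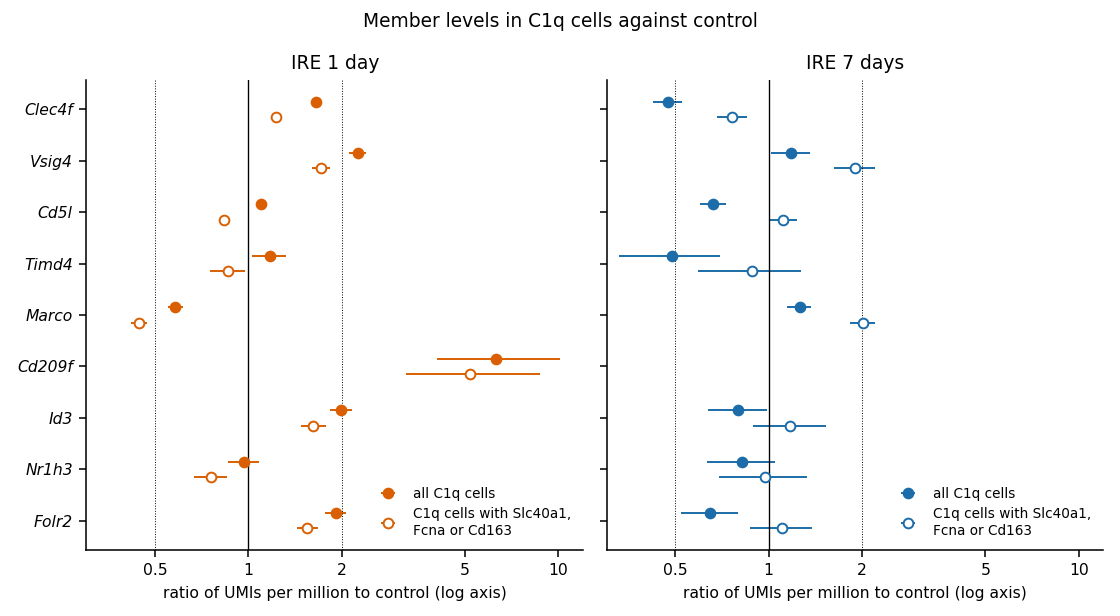
Ratio of each gene's CPM to control (log axis) on days 1 and 7 in all C1q cells (filled) and in C1q cells with Slc40a1, Fcna or Cd163 (open), with 95% intervals; dotted lines mark 2-fold and Cd209f, with no UMI on day 7, has no point there. Marco lies below 1 on day 1 and above 1 on day 7 in both sets, and Clec4f the other way.

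Genes of the pathways around Kupffer cell identity are given by their counts past 2-fold in C1q cells, to be read beside the 5.68% of all genes lower and 15.1% higher on day 1, and the 19.3% lower and 8.46% higher on day 7. Of 14 transcription factors known in Kupffer cells, Zeb1 was at least 2-fold higher in C1q cells on day 1, and Rxra and Zeb1 were lower and Id1 and Rbpj higher on day 7. The day 7 ratio of Zeb1 rests on 3 UMIs in that library, and its interval held 1 (0.0684 to 1.03). On day 7, Id1 and Rbpj were at 159 and 146 CPM in C1q cells, against 281 and 267 in barcodes under 200 genes. Zeb1 was also lower in C1q cells than in those barcodes in each library. Maf was at 884, 901 and 585 CPM in control, on day 1 and on day 7. Of 12 genes regulated by or paired with the liver X receptors, Abca1 was at least 2-fold lower and Apoc1 and Scd1 were higher on day 1, and Abca1, Apoe and Scd1 were lower and none was higher on day 7. Scd1 was at 63.9, 733 and 15.9 CPM in C1q cells in control, on day 1 and on day 7. In barcodes under 200 genes it was at 38.6, 687 and 9.20. Apoe, the lipid carrier, was at 21819.9, 17030.3 and 10612 CPM. Apoc1 was at 1142, 4028 and 601, beside hepatocyte genes that took 0.154%, 2.82% and 0.0136% of C1q cell UMIs (Alb at 717, 13773 and 74.4 CPM, Apoa2 at 287, 4774 and 10.6). Among 10 niche ligands and Notch targets found in the files, of 11 listed, 6 had at least 20 UMIs on day 1 and Dll4 and Bmp2 were 2-fold higher. On day 7, of 4 such genes, Bmp2 and Hes1 were 2-fold lower and Csf1 higher. The day 7 levels of Bmp2 and Hes1 rest on 6 and 10 UMIs. Csf1 was then at 55.8 CPM in C1q cells, against 209 in barcodes under 200 genes. Bmp2, made by endothelial cells, was at 48.6, 220.2 and 15.9 CPM and Hes1 at 66.5, 129.5 and 26.6, beside the endothelial sums given above. The median log2 ratio to control was 0.86 on day 1 for the 6 niche genes and -0.55 on day 7 for the 12 liver X receptor genes. Of 8 general macrophage genes, Cd68, Fcgr1 and Cd14 were 2-fold higher on day 7 and none passed 2-fold on day 1. On day 7, Cd14 was at 590 CPM in C1q cells but at 3066 in barcodes under 200 genes. Cd68 and Fcgr1 were at 1039 and 579 CPM in C1q cells that day, against 344 and 197 in those barcodes. The part of free RNA in these levels was not tested. Lyz2, the lysozyme of myeloid cells, was at 8140.5, 4251 and 7459.8 CPM, and Aif1 at 1449, 807 and 1259.7. Of 17 other Kupffer cell genes with enough UMIs, Fcna and Cd207 were 2-fold higher on day 1, C6, Xlr and C4b lower and Hmox1 and Arg2 higher on day 7. In C1q cells on day 7, Arg2 was at 74.4 CPM and Hmox1 at 457, against 232 and 354 in barcodes under 200 genes. Fcna was at 874, 1837 and 534 CPM and Slc40a1 at 779.7, 877 and 404. The median log2 ratio of these 17 genes to control was 0.41 on day 1 and -0.40 on day 7, beside 0.05 and -0.08 for all genes tested.

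Across 19 cell groups, each a marker gate of 1 library with at least 50 cells, the level of Clec4f was most like that of Cd5l among the 9 genes (Pearson r = 0.986 on log2 of CPM plus 10) and, among 10074 genes without the 9 and the C1q genes, like that of C6 (0.974), a complement component, and Fcna (0.949). Leaving out the 9 genes and the C1q genes, C6 was also the gene most like Cd5l (0.962). Under the same limit, Timd4 was most like Fcna (0.880), Folr2 most like Cd163 (0.869), and Marco most like Aspa (0.869). Again under this limit, Vsig4 was most like St3gal5 (0.857) and Nr1h3 most like Gstp2 (0.891). Among the genes left out above, Timd4 was closest to C1qa (0.943) and Marco (0.902), Nr1h3 to C1qc (0.954), and Vsig4 to Cd5l (0.871). Id3 was most like Crip2 (0.891) and had r = 0.602 with Clec4f. Cd209f was most like Ppara (0.960), a gene of hepatocytes, and had r = 0.629 with Clec4f. Both values for Cd209f rest on few counts, since it had 31, 163 and 0 UMIs over all cells of the 3 libraries. Groups of 1 library share its free RNA and depth, so that these values are descriptions.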

How the data were processed

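The 9 genes and all gene lists were chosen with earlier results of these data known. The authors deposited 1 table of raw UMI counts per library, made with Drop-seq tools (DigitalExpression, sense strand, mapping quality of at least 10, UMIs within edit distance 1 collapsed). STAR 2.5.2a and build hg19 are named in the submitters' processing notes. The gene symbols are those of mouse, so the build was not settled and no coordinates were taken from the files. The deposited counts carry no cell type labels, and no doublet caller was run. Total UMIs were 10032574, 8563287 and 4580021 in control, day 1 and day 7, and the median cell had 595, 509 and 456.5 UMIs. UMIs were summed over cells and scaled to 1000000 (CPM) with exact Poisson intervals, ratios have conditional binomial intervals and shares Clopper-Pearson intervals, all at 95%. PCR and pooling error are not covered. A ratio needed more than 3 UMIs in 1 group, and a count of 0 was set to 3 for bounds. Fold counts used genes with at least 20 UMIs, except where 100 are named. Cells passed a gate with 2 or more of its markers, and a cell outside the C1q gate was put in a gate only where it passed no other. All 9 genes, and for each list the counts past 2-fold and the 2 genes with most UMIs over C1q cells, are named, except 1 transcription factor that is not reported here. The labels give 75 V, and the study's methods a lower voltage. Promoters are from RefSeq. Python 3.11.15, numpy 2.4.6, scipy 1.17.1 and pandas 2.3.3 were used, and the scripts were tested on simulated data.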

Additional observations from a re-analysis of the deposited data

How the results depend on the processing

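No paired analysis was possible because each group has 1 library, and leaving out a library was not possible either. Against control over all cells, the sum of the 9 genes on day 1 (1.65) was 1.72 and 1.57 with at least 100 and 300 genes per cell, 1.68 without mitochondrial UMIs, 1.61 with at most 20% of them, 1.83 without the 5% deepest cells and 1.68 without shared barcodes. On day 7 (0.308) these gave 0.284, 0.324, 0.256, 0.236, 0.248 and 0.305. In C1q cells on day 1 (1.35) the values were 1.38, 1.40, 1.54 and 1.44 for the last 4, 1.40 with all 3 C1q genes, 1.44 with Csf1r, Adgre1 and Cd68, and 1.22 without cells of another gate. On day 7 (0.755) they were 0.667, 0.700 and 0.583 without mitochondrial UMIs, with at most 20% and without the deepest cells, 0.594 with at least 1 C1q gene, 0.447 with Csf1r, Adgre1 and Cd68 and, reversed, 1.04 with all 3 C1q genes. Of the alternatives chosen after seeing the data, cells with Slc40a1, Fcna or Cd163 gave 1.02 and, reversed, 1.22, cells without them 2.33 on day 1, and subtracting neutrophil-gated levels 1.13 and 0.791. The cause was not tested.

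Single genes reversed as follows. On day 1, Cd5l came to 0.834 in cells with Slc40a1, Fcna or Cd163 and 0.859 after subtraction, and Timd4 to 0.857 in those cells and 0.984 without cells of another gate. On day 7, Vsig4 came to 0.928 without the deepest cells, 0.886 with at least 1 C1q gene and 0.694 with Csf1r, Adgre1 and Cd68, and Marco to 0.876 and 0.735 under the first and last of these. In cells with Slc40a1, Fcna or Cd163 on day 7, Cd5l came to 1.11, Id3 to 1.17 and Folr2 to 1.10, and Id3 to 1.18 with all 3 C1q genes. Clec4f kept its direction under all 12 alternatives at both times and Marco on day 1. Of 27 shares of cells, 22 moved by more than their interval when cells were thinned to 500 instead of 300 UMIs. A share tends to rise with the UMIs kept per cell, so this count cannot show whether differences between libraries hold.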
